A study of Mus musculus with 4 samples.

Results

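The genes described are those for the proteins of the cytosolic ribosome, measured in mouse embryonic stem cells after silencing of Pnpla6. They were chosen by name: every probe other than a control whose RefSeq accession led to a symbol of the Rpl or Rps series, or to Rplp0, Rplp1, Rplp2 or Rpsa, was kept, and S6 kinases, Rps19bp1 and pseudogenes were left out. This gave 83 genes with 119 probes, of 17016 named genes and 41174 probes on the array. The large subunit accounted for 51 genes with 76 probes and the small subunit for 32 genes with 43 probes. Among them, 6 genes are paralogs of another member: Rpl3l, Rpl7l1, Rpl22l1, Rpl36al, Rpl39l and Rps27l. All 83 genes were tested, and 118 of the 119 probes passed the filter on dim probes.

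RNA of D3 embryonic stem cells given siRNA against Pnpla6 (siNTE in the labels) was hybridised against RNA of control cells on 4 Agilent arrays in Cy3 and Cy5, with 2 arrays for 24 h of culture and 2 for 96 h. Pnpla6 encodes neuropathy target esterase, a lysophospholipase of the endoplasmic reticulum. All cells, controls included, were kept without leukaemia inhibitory factor and the transfected cells were seeded as embryoid bodies. What the control cells received, and whether replicates were separate cultures, are not given in the labels. The p-values therefore measure only spread among these arrays. For silencing effects this is the spread left after a term for dye orientation, drawn mostly from all genes together (residual df 1, prior df 33.2). Replicate 1 carried the control RNA in Cy5 at both times and replicate 2 carried it in Cy3. Dye orientation and replicate number therefore cannot be told apart. Both 24 h arrays and 96 h replicate 1 lay on 1 slide and 96 h replicate 2 on another.

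A ribosome joins a small subunit, which reads the mRNA, to a large subunit, which forms the peptide bonds, and each ribosomal protein is used in about equal number. The mRNAs of these proteins are abundant in dividing cells, and most begin with a run of pyrimidines, the terminal oligopyrimidine tract, through which mTOR and LARP1 set how much of each mRNA is translated. Ribosome assembly in the nucleolus needs a further set of factors, many of them induced by Myc.

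Promoter windows of 300 bases from RefSeq (GRCm38.p6, 250 bases before to 50 after a start) were found for 63 members, with 75 windows. The stretches printed here run from 30 bases before the start to 20 after it. Capitals mark oligopyrimidine runs on the sense strand (the run CTTTTC, the run CTTTCC, the run CTCTTT or the run CTTCCT) and, on either strand, the ETS site CCGGAAG, the SP1 box GGGCGG, the YY1 site AAGATGG and the TATA box TATAAA. The windows shown are those of genes named in the results below, with and without a run at the start; Rps19 and Rps15 gave the largest rises with time on the probes tested, and for Rps19 the first of 3 windows is shown.
Rps19, chr7:24884562-24884611, plus strand: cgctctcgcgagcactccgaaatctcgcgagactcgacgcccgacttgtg
Rps15, chr10:80292401-80292450, plus strand: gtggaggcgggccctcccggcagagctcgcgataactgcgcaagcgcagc
Rps6, chr4:86857348-86857397, minus strand: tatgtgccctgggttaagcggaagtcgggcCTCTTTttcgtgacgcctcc
Rps10, chr17:27635225-27635274, minus strand: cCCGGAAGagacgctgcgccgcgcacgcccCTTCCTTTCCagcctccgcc
Rps15a, chr7:118116128-118116177, minus strand: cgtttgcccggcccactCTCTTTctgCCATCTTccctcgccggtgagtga
Rpl27a, chr7:109519165-109519214, plus strand: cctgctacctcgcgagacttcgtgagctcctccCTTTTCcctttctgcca
Rpl39l, chr16:10170198-10170247, plus strand: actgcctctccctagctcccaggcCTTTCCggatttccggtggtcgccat
Rpl22l1, chr3:28805478-28805527, plus strand: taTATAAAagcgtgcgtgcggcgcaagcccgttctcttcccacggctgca
Rps28, chr17:33824543-33824592, minus strand: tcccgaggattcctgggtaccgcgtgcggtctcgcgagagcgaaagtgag

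Within 20 bases of the start on the sense strand, 1 of the oligopyrimidine runs stood in 25 of the 75 windows (33.3%), against 7.35% of all 32851 windows. The shares were 34.8% for the large and 31.0% for the small subunit. Over the whole 300 bases, the ETS site was in 36.0% of the members' windows against 8.86% of all, the SP1 box in 60.0% against 35.7%, the YY1 site in 16% against 6.34% and the TATA box in 9.33% against 13.6%. In these examples genes with a run at the start, and genes without one, changed with time in either direction. Rps6, Rps15a and Rps10, which rose in control cells, have one, while Rps19 (in all 3 windows) and Rps15, which rose more, have none. Rpl27a and Rpl39l, which fell, have one. Rpl22l1, which fell in silenced cells, has none, and neither have Rpl7l1 and Rpl3l, which fell in control cells and whose stretches are not shown. Rps28 has none of these letters in the stretch shown. These matches are descriptions of the sequence and overlap where motifs share letters.

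The members gave some of the strongest signals on the arrays: 95 of the 119 probes were in the brightest 1% by mean log2 intensity, and 106 in the brightest 5%. The exceptions included probes of Rpl3l (brighter than 60.7% of probes), Rpl21 (67.6%) and Rpl39l (88.1%). No spot was saturated. Probe brightness also depends on the probe's sequence, so levels were compared only within a probe. RefSeq lists 321 pseudogenes named after 63 of the members, and how much of a spot's signal came from such copies was not tested.

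The log2 ratio of silenced to control cells followed the dye. The median over the 83 members was -0.33 on 24 h replicate 1 and 0.35 on 24 h replicate 2, and -0.49 and 0.46 on the corresponding 96 h arrays. The median over all 21754 genes tested lay between -0.005 and 0.006 on these arrays. Both subunits moved with the dye in the same way: the large subunit gave medians of -0.29, 0.31, -0.47 and 0.37 and the small subunit -0.41, 0.41, -0.51 and 0.53, in the same order of arrays.

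**Figure D1:**
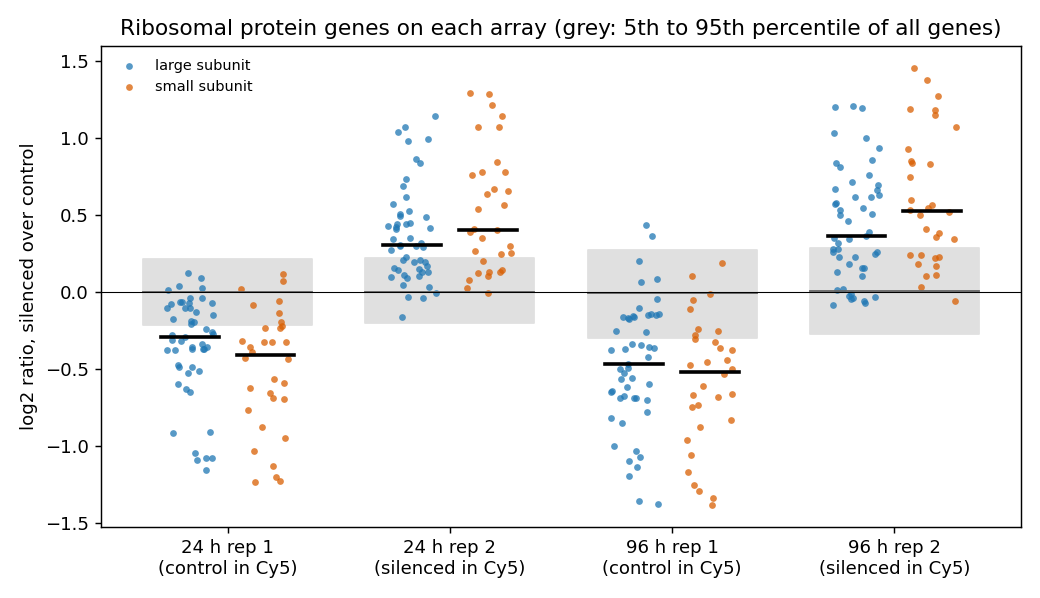
Log2 ratio of silenced to control cells (vertical axis) for each ribosomal protein gene on the 4 arrays (horizontal axis), after loess; points are genes, black lines the subunit medians, grey bands the 5th to 95th percentile of all genes tested. Most members lie below 0 where the control RNA was in Cy5 and above 0 where the silenced RNA was, in both subunits.

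Turned to Cy5 over Cy3 and averaged over the 4 arrays, the ratio had a median of 0.41 in the members, ranged from -0.14 to 1.32, and was positive in 78 of 83. It exceeded 0.5 in 32 members (38.6%) and in 0.336% of all genes tested. At 24 h only 7 of the 83 members had the same sign of silenced over control on both arrays (8.43%, against 37.9% of all genes), and at 96 h 10 members did (12%, against 51.3%). Genes with a large dye difference at 24 h also had one at 96 h (r = 0.95 over the 83 genes, which share arrays and so are no replicates). Other genes of like brightness showed it too: among spots with a mean log2 intensity of 17 or more, the median was 0.99 in 23 members and 0.81 in 28 other genes, and between 16 and 17 it was 0.40 in 36 members and 0.23 in 79 others.

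**Figure D2:**
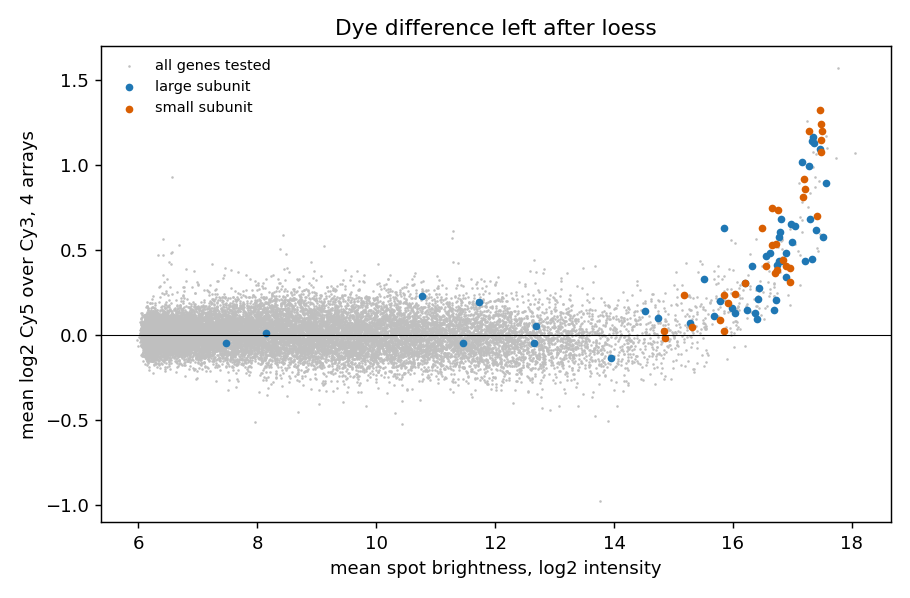
Mean log2 ratio of Cy5 to Cy3 over the 4 arrays after loess (vertical axis) against mean log2 spot intensity (horizontal axis), with all genes tested in grey and ribosomal protein genes coloured by subunit. The ratio climbs above an intensity of about 16, where most members lie, and members below an intensity of 15 lie between -0.14 and 0.23.

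The stalk proteins show the size of the dye term. Rplp0 carries the Rplp1 and Rplp2 pairs that recruit the elongation factors. On 24 h replicate 1, 24 h replicate 2, 96 h replicate 1 and 96 h replicate 2 the log2 ratio of Rplp0 was -0.91, 0.86, -1.03 and 0.76. Rplp1 gave -1.15, 1.15, -1.07 and 1.20, and Rplp2 gave -0.51, 0.49, -0.64 and 0.81. Each of the 3 genes changed sign between the arrays of a time, and with the dye term the silencing effect was -0.02, 0.00 and -0.01 at 24 h and -0.13, 0.07 and 0.09 at 96 h. None of these passed the test.

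Silencing at 24 h left no ribosomal protein gene past the test, which was limma with a dye term and an adjusted p under 0.05. Of the 83 members 0 were called, 2 had an unadjusted p under 0.05, and 0.372% of all genes were called. The log2 effects ran from -0.13 to 0.13 with a median of 0.02, against 0.00 over all genes, and 79 of 83 (95.2%, against 85.1% of all genes) were under 0.1 in size. The standard errors of the members' silencing effects were 0.06 to 0.09. They are those of the fit, drawn mostly from all genes together. They do not give the spread between the 2 arrays of a time for the gene itself. Pnpla6 itself was lower by 0.87 on the log2 scale at 24 h (log2 ratios of -0.73 and -1.0 on the 2 arrays, limma adjusted p = 2.59e-11), and at 96 h its effect was 0.01.

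The 2 members with the smallest p at 24 h were Rpl7l1 and Rps18. Rpl7l1, a paralog of Rpl7, gave log2 ratios of -0.10 and -0.16 (n = 2 arrays). Its effect was -0.13 ± 0.06 (SE of the fit, limma adjusted p = 0.618). Rps18, a protein of the small subunit's head, gave ratios of -1.03 and 1.29 and an effect of 0.13 ± 0.06 (limma adjusted p = 0.627). Both arrays had the same sign for Rpl7l1, and for Rps18 they had opposite signs. By subunit the median effect at 24 h was 0.02 in each.

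At 96 h 3 members rose with silencing and 0 fell, so 3.61% of the members were called, against 13.4% of all genes tested. Over all genes 6.61% were called higher and 6.80% lower. The members' median effect was -0.02, and 60 of 83 (72.3%, against 64.9% of all genes) were under 0.1 in size. The large subunit had a median of -0.03 with 33 of 51 genes negative, and the small subunit -0.01 with 17 of 32 negative.

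Rpl39l rose most. It is a paralog of Rpl39, a small protein lining the exit tunnel, and is best known from male germ cells. At 24 h its log2 level was 11.10 in control and 10.89 in silenced cells on replicate 1, and 10.93 and 11.23 on replicate 2. At 96 h it was 10.32 in control and 10.53 in silenced cells on replicate 1, and 10.23 and 10.86 on replicate 2. The groups overlapped at 24 h, while both silenced channels at 96 h were above both control channels. The log2 ratios at 96 h were 0.21 and 0.62 (n = 2 arrays). The effect at 96 h was 0.41 ± 0.06 (SE of the fit, 1.33-fold, limma adjusted p = 7.75e-06). At 24 h it was 0.05 ± 0.06 (limma adjusted p = 0.967). The standard error at 96 h does not reflect the gap between the 2 ratios.

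A second, dimmer probe of Rpl39l gave -0.05 at 24 h and 0.21 at 96 h. Its parent Rpl39 gave 0.04 at 24 h and -0.04 at 96 h, neither past the test. Rpl39l was also the 1 member of 83 whose silencing effect differed between 96 h and 24 h, by 0.37 ± 0.09 (SE, limma adjusted p = 0.00631), where 6.92% of all genes were called and 2.83% in this direction. The call at 96 h was lost without the dye term (limma adjusted p = 0.396) and with the authors' deposited log ratios (limma adjusted p = 0.184), at effects of 0.41 and 0.40. With the authors' ratios no gene at all was called at 96 h, so that loss says nothing about Rpl39l itself. Leaving out 96 h replicate 2 gave an effect of 0.21 and leaving out 96 h replicate 1 gave 0.62. Fits with 1 array left out also dropped the dye term, so they cannot show whether the call needs that array.

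Rpl3l, a paralog of Rpl3 known from heart and skeletal muscle, also rose. Its log2 level in control and silenced cells was 7.62 and 7.74 on 24 h replicate 1, 7.62 and 7.65 on 24 h replicate 2, 7.09 and 7.46 on 96 h replicate 1, and 7.20 and 7.46 on 96 h replicate 2. Both silenced channels at 96 h stood above both control channels. The effect at 96 h was 0.32 ± 0.06 (SE of the fit, n = 2 arrays, 1.24-fold, limma adjusted p = 3.76e-04), and Rpl3 gave 0.04. The difference from its 24 h effect of 0.08 did not pass the test (0.23 ± 0.09, limma adjusted p = 0.114). The 96 h call was lost without the dye term (limma adjusted p = 0.209). It was also lost with the authors' deposited log ratios (limma adjusted p = 0.178, at an effect of 0.55). With those ratios no gene at all was called at 96 h, so that loss says nothing about Rpl3l itself. Fits with 1 array left out also dropped the dye term, so they cannot show whether the call needs that array.

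Rps28, a small-subunit protein at the mRNA exit, was the third to pass; it falls outside the rule for named genes and was picked after its values were seen. On 96 h replicate 1 its log2 level was 18.04 in control and 17.21 in silenced cells, and on replicate 2 it was 16.72 and 18.18. The ratios of -0.83 and 1.46 (n = 2 arrays) have opposite signs and the groups overlap. The effect of 0.31 ± 0.06 (SE of the fit, limma adjusted p = 6.10e-04) is what was left after the dye term. This standard error does not reflect the gap between the 2 ratios. A second probe gave 0.21. The call was lost without the dye term (limma adjusted p = 0.959) and with an offset of 16 (limma adjusted p = 0.0672). It was also lost with the authors' deposited log ratios (limma adjusted p = 0.219), where no gene at all was called at 96 h. Fits with 1 array left out also dropped the dye term, so they cannot show whether the call needs that array.

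Of the other paralogs none passed at 96 h. Rpl22l1, whose parent Rpl22 is known to repress it, gave -0.17 ± 0.06 (SE, limma adjusted p = 0.0638) and Rpl22 gave -0.10. Rpl7l1 gave 0.02 and Rpl7 -0.14. The values were -0.12 for Rpl36al and 0.04 for Rpl36a, and -0.12 for Rps27l, a p53 target, and 0.04 for Rps27. Rpsa, which also serves as a laminin receptor precursor, gave 0.15 (limma adjusted p = 0.135), and -0.05 on a dimmer probe.

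**Figure D3:**
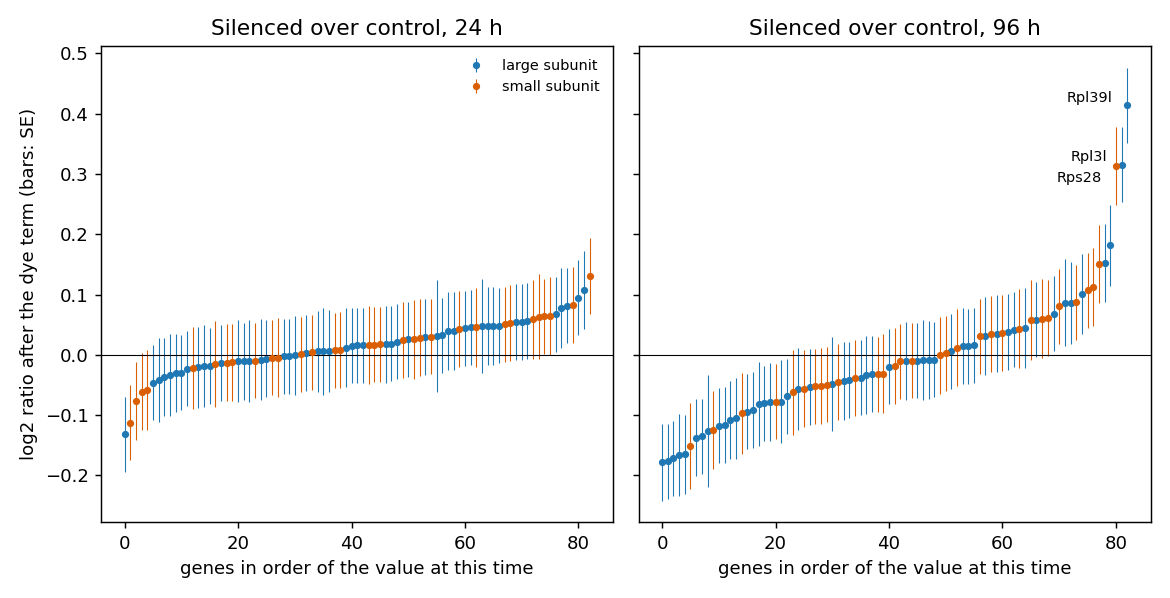
Log2 effect of silencing after the dye term (vertical axis) for the 83 ribosomal protein genes in order of their value (horizontal axis). Values at 24 h are on the left and those at 96 h on the right, and bars are standard errors of the fit. At 24 h all lie between -0.13 and 0.13, and at 96 h Rpl39l (0.41), Rpl3l (0.32) and Rps28 (0.31) stand above the rest.

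From 24 h to 96 h in control cells, 12 members rose and 5 fell, 20.5% of the members against 36.4% of all genes tested. Over all genes 19.3% rose and 17.1% fell. The members' median log2 change was 0.11 against -0.01 over all genes, with 67 of 83 positive. The small subunit had 5 rises and 0 falls of 32 and a median of 0.11, and the large subunit 7 rises and 5 falls of 51 and a median of 0.12. Since no array held both times, channels of different arrays were compared, and the members' standard errors were 0.08 to 0.47. The count was 40 without 24 h replicate 2 and 32 without 96 h replicate 2, which leaves 1 slide, and over all genes it was 11820 and 10276 in place of 7923.

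Silenced cells showed 5 rises and 5 falls, 12% of the members against 37.4% of all genes, of which 19.5% rose and 17.9% fell. The members' median was 0.08 against -0.01 over all genes. The small subunit had 4 rises and 0 falls with a median of 0.11, and the large subunit 1 rise and 5 falls with a median of 0.06. Without 24 h replicate 1, 24 h replicate 2, 96 h replicate 1 or 96 h replicate 2 the count was 35, 23, 28 or 21, and over all genes it was 12239, 11669, 10815 or 10051 in place of 8127. With the mean over a gene's probes 15 members were called, 10 rises and 5 falls. Control and silenced channels shared the same arrays.

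**Figure D4:**
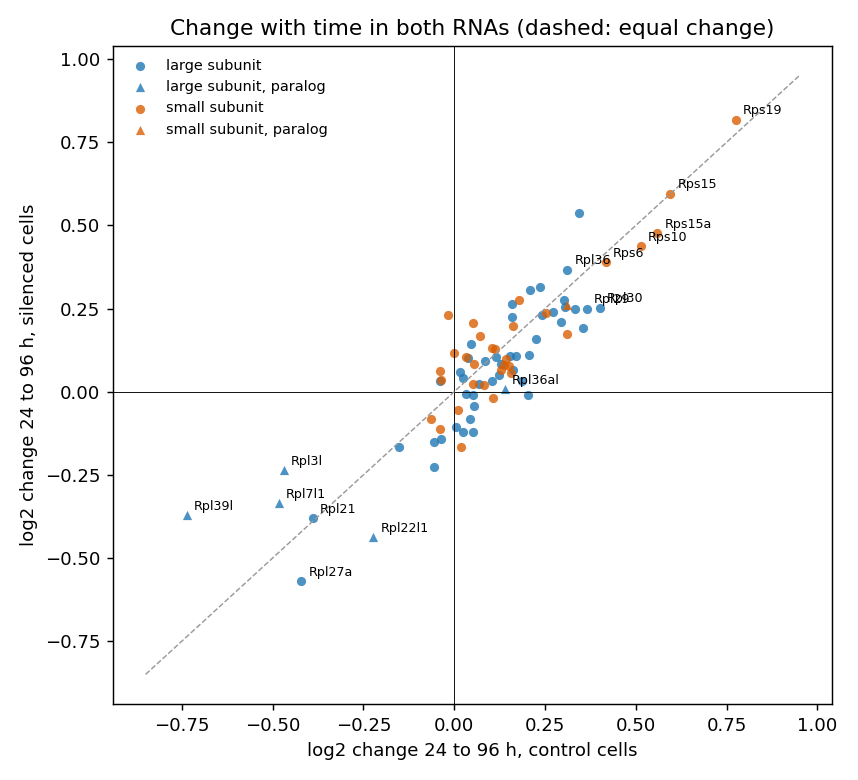
Log2 change from 24 h to 96 h in silenced cells (vertical axis) against that in control cells (horizontal axis) for the 83 ribosomal protein genes, coloured by subunit, with paralogs as triangles and the dashed line marking equal change. Rps19, Rps15, Rps15a, Rps10 and Rps6 lie at the upper right, and Rpl39l, Rpl7l1, Rpl3l, Rpl22l1, Rpl27a and Rpl21 at the lower left.

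Among the rises called on each gene's brightest probe, the largest were in small-subunit genes. Dimmer probes of some large-subunit genes gave values of this size in control cells, up to 1.52 for Rpl22. Rps19, a protein needed to mature the small-subunit rRNA and often mutated in Diamond-Blackfan anaemia, had log2 levels in control cells of 14.45 and 14.37 at 24 h and 15.18 and 15.19 at 96 h. In silenced cells they were 14.48 and 14.48 at 24 h and 15.29 and 15.30 at 96 h. All 4 channels at 96 h stood above all 4 at 24 h, with changes of 0.78 ± 0.09 in control (SE, 1.71-fold, limma adjusted p = 5.59e-04) and 0.82 ± 0.09 in silenced cells (1.76-fold, limma adjusted p = 4.33e-04).

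Rps15, which is needed for nuclear export of the small subunit, rose by 0.60 ± 0.17 in control cells and by 0.60 ± 0.17 in silenced cells (limma adjusted p = 0.0299 and 0.0291). Both calls were lost when the arrays were centred on their median without loess (limma adjusted p = 0.0634 and 0.0617). Rps15a, at the back of the small subunit, went from 14.53 and 14.62 in control cells at 24 h to 15.08 and 15.18 at 96 h, and from 14.60 and 14.65 to 15.08 and 15.13 in silenced cells. No channel of 96 h overlapped with 24 h, and the changes were 0.56 ± 0.09 (limma adjusted p = 0.00222) and 0.48 ± 0.09 (limma adjusted p = 0.00448).

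Rps6, the substrate of the S6 kinases, rose by 0.42 ± 0.09 in control cells (limma adjusted p = 0.00969) and 0.39 ± 0.09 in silenced cells (limma adjusted p = 0.0126). Its control channels were 15.09 and 14.80 at 24 h and 15.43 and 15.30 at 96 h, without overlap. Rps10, a protein of the small subunit's head, rose by 0.51 ± 0.16 in control cells (limma adjusted p = 0.0384) and gave 0.44 in silenced cells (limma adjusted p = 0.0653). The control call of Rps10 was lost with median centring (limma adjusted p = 0.0822) and with an offset of 16 (limma adjusted p = 0.0508).

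Among the large-subunit genes called on their brightest probe, Rpl30 rose most in control cells, by 0.40 ± 0.11 (limma adjusted p = 0.0223), and the value in silenced cells was 0.25 (limma adjusted p = 0.104). With the processed signals the control call of Rpl30 was lost (limma adjusted p = 0.080). Rpl36 was the 1 large-subunit gene that rose in silenced cells, by 0.37 ± 0.09 (limma adjusted p = 0.0147), and it rose by 0.31 ± 0.09 in control cells (limma adjusted p = 0.0291). Both calls of Rpl36 were lost with median centring (limma adjusted p = 0.0621 and 0.0986), and the control call also with an offset of 16 (limma adjusted p = 0.0522) and with the processed signals (limma adjusted p = 0.0736). The other rises in control cells were Rpl29, Rpl14, Rpl10a, Rpl35a and Rpl31, between 0.27 and 0.37. Dimmer probes of Rpl35a (0.62) and Rpl29 (0.47 to 0.55) gave larger values than that of Rpl30.

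Of the 5 falls in control cells 3 were paralogs. Rpl39l, at the levels given for its silencing effect, fell by 0.74 ± 0.10 in control cells (1.67-fold, limma adjusted p = 0.00106) and by 0.37 ± 0.10 in silenced cells (limma adjusted p = 0.0216). Both control channels at 96 h were below both at 24 h, and so were both silenced channels. Its second probe gave -0.58 and -0.31.

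Rpl7l1, whose product takes part in large-subunit assembly, had log2 levels of 11.66 and 11.79 in control cells at 24 h and 11.16 and 11.33 at 96 h, and of 11.55 and 11.63 and then 11.24 and 11.27 in silenced cells. No channel of 96 h reached one of 24 h, and the gene fell by 0.48 ± 0.10 (limma adjusted p = 0.00699) and by 0.34 ± 0.10 (limma adjusted p = 0.0303). A second probe gave -0.19 and -0.13, and the silenced call was lost with the mean over probes (limma adjusted p = 0.0636), an offset of 16 (limma adjusted p = 0.0554) and the processed signals (limma adjusted p = 0.0693). Rpl3l fell by 0.47 ± 0.09 in control cells (limma adjusted p = 0.00446) and gave -0.24 in silenced cells (limma adjusted p = 0.0659).

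Rpl22l1 fell in silenced cells by 0.44 ± 0.09 (limma adjusted p = 0.00573) and gave -0.22 in control cells (limma adjusted p = 0.079). Its levels were 14.85 and 14.99 in silenced cells at 24 h and 14.42 and 14.54 at 96 h, without overlap. The remaining paralogs, Rpl36al and Rps27l, gave 0.14 and 0.31 in control cells, neither past the test. Of the parents, Rpl39 gave 0.33, Rps27 0.25, Rpl22 0.16, Rpl36a 0.09, Rpl7 0.04 and Rpl3 0.02 in control cells, and none passed.

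Rpl27a and Rpl21, both large-subunit proteins, fell in both RNAs. Rpl27a had control levels of 12.85 and 12.95 at 24 h and 12.55 and 12.41 at 96 h, and fell by 0.42 ± 0.09 (limma adjusted p = 0.0111), and by 0.57 ± 0.09 in silenced cells (limma adjusted p = 0.00285). Rpl21 fell by 0.39 ± 0.09 (limma adjusted p = 0.0137) and by 0.38 ± 0.09 (limma adjusted p = 0.0145), on a single probe whose control levels were 8.30 and 8.41 at 24 h and 7.93 and 8.0 at 96 h. Without normalization between arrays the calls of Rpl21 were lost (limma adjusted p = 0.0943 and 0.104).

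**Figure D5:**
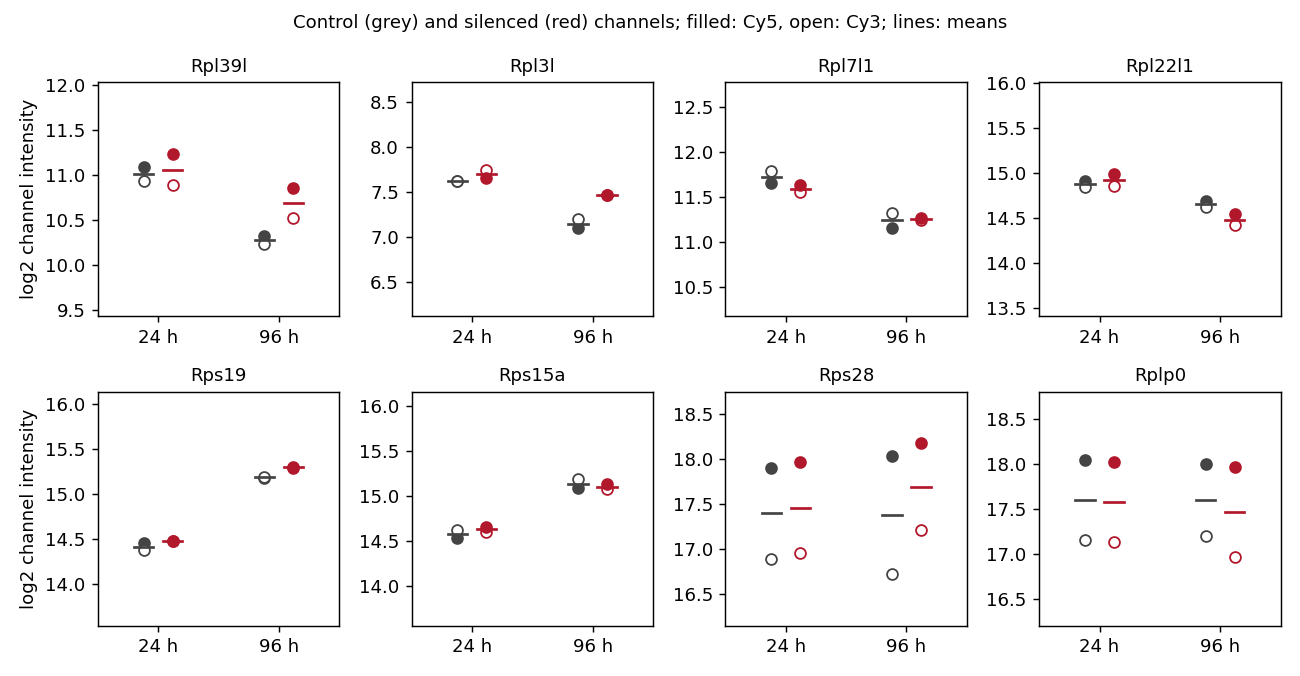
Normalized log2 channel intensity (vertical axis) of 8 ribosomal protein genes at 24 h and 96 h (horizontal axis), control in grey and silenced in red, Cy5 filled and Cy3 open, with lines at group means; each panel spans the same number of log2 units. Rps19 and Rps15a shift upward and Rpl39l and Rpl7l1 downward with time, while for Rps28 and Rplp0 the filled and open points of a group lie apart.

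Of the stalk genes and Rpsa none passed with time: the control changes were 0.00 for Rplp0, -0.04 for Rplp1, 0.05 for Rplp2 and 0.05 for Rpsa. Several probes passed the filter for 29 members, giving 35 other probes beside the brightest; a second probe of Rps15a did not pass. In control cells the other probe gave the higher change for 25 of 35, and the gap exceeded 0.5 for 3. Rpl22 gave 0.16 on its brightest probe and 1.52 on the other, Rps25 0.14 and -0.45, and Rpsa 0.05 and -0.49. In silenced cells Rpl17 gave 0.03 and 0.59. For these genes the direction or size depends on the probe. In the silencing effects no pair of probes differed by more than 0.5 at either time. That says little, since the members' effects at 96 h ran only from -0.18 to 0.41. The median gap at 96 h was 0.07. Some probes then had opposite signs: Rpsa gave 0.15 and -0.05, Rpl22 -0.10 and 0.09, Rpl7l1 0.02 and -0.09, and Rpl36a 0.04 against -0.12 and -0.03.

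The genes that build and regulate ribosomes gave other values. Of 35 ribosome biogenesis factors tested, 24 fell and 0 rose in control cells (68.6%, against 36.4% of all genes), with a median of -0.53. In silenced cells 27 fell and 0 rose (77.1%, against 37.4% of all genes), with a median of -0.64. Polr1b, a subunit of RNA polymerase I, fell by 1.38 ± 0.09 (limma adjusted p = 4.06e-05) in control cells, the assembly factor Rrp12 fell by 1.03 ± 0.11 and the chaperone Grwd1 fell by 0.98 ± 0.13 (limma adjusted p = 3.97e-04 and 9.24e-04). With silencing at 24 h 0 of the 35 were called, none of them with an unadjusted p under 0.05. At 96 h 5 fell and 0 rose (14.3%, against 6.80% of all genes called lower and 13.4% called either way). The falls were led by the nucleolar phosphoprotein Nolc1 at -0.31 and Ftsj3, an rRNA methyltransferase, at -0.28. The median at 96 h was -0.12, with 30 of 35 negative.

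Of 77 mitochondrial ribosomal protein genes, 3 rose and 35 fell in control cells (49.4%, against 36.4% of all genes; median -0.26), among them Mrps7 at -0.95 and Mrpl23 at 0.80. With silencing at 96 h 7 fell and 0 rose (9.09%, against 6.80% of all genes called lower and 13.4% called either way). The median was -0.05, with 66 of 77 negative. Of 24 initiation factors 1 rose and 10 fell in control cells (45.8%, against 36.4% of all genes), with the helicase gene Eif4a2 at 0.85 and Eif2b1 at -0.82. Of 19 translation factors and other genes with oligopyrimidine mRNAs 3 rose and 0 fell in control cells (15.8%, below the 36.4% of all genes): Eif4b by 0.42, Tpt1 by 0.42 and Eif3f by 0.32. With silencing at 96 h 2 of these fell and 0 rose, Eef1d at -0.21 and Eif4b at -0.20. That is 10.5%, against 6.80% of all genes called lower and 13.4% called either way.

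Of 19 genes of the mTOR, Myc and LARP1 group 3 rose and 6 fell in control cells (47.4%, against 36.4% of all genes). Ddit4, an inhibitor of mTOR complex 1, rose by 2.74 ± 0.12 (limma adjusted p = 9.33e-06), and Myc fell by 1.92 ± 0.09 (limma adjusted p = 1.43e-05). With silencing at 96 h Myc fell by 0.34 ± 0.06 and Mycn rose by 0.27 ± 0.07 (limma adjusted p = 1.61e-04 and 0.00393). Of 8 genes of ribosome quality control, Mdm2, the p53 ligase that free ribosomal proteins bind, rose by 1.02 ± 0.11 in control cells (limma adjusted p = 4.20e-04). The others did not pass (12.5% called, against 36.4% of all genes).

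Markers of other cell states moved over the same interval. The mean log2 level of 9 embryonic stem cell markers was 13.8 on both control channels at 24 h and 13.7 on both at 96 h, and between 13.7 and 13.9 on the silenced channels. The mean hides changes with time: in control cells 2 fell and 0 rose (22.2%, against 36.4% of all genes), Zfp42 by 0.58 and Utf1 by 0.40. In silenced cells 3 fell and 1 rose (44.4%, against 37.4%): Pou5f1 by -1.41, Utf1 by -0.35, Zfp42 by -0.31 and Sox2 by 0.60. Single markers were called with silencing: after the dye term Pou5f1 gave 0.68 ± 0.07 at 24 h and -1.05 ± 0.07 at 96 h (limma adjusted p = 2.44e-08 and 1.65e-14). For Pou5f1 the arrays of each time had opposite signs, and these standard errors do not reflect that gap. Its mean log2 ratio of Cy5 to Cy3, -0.98, was the lowest of all genes tested. At 96 h 5 of the 9 rose (against 6.61% of all genes), among them Esrrb at 0.37 and Sox2 at 0.36. While 6 of the 9 were called at 96 h, only 4 had the same sign on both arrays (44.4%, against 51.3% of all genes), so some calls rest on the dye term. The mean of 5 feeder fibroblast markers went from between 7.31 and 7.41 to between 8.11 and 8.25 in control cells. There 4 of 5 rose, against 19.3% of all genes. In both silenced channels at 96 h the mean was 7.83, and 4 of 5 fell with silencing, against 6.80% of all genes. The mean of 4 epiblast and streak markers went from between 7.58 and 7.63 to between 8.65 and 8.68 in control cells. In silenced cells at 96 h it was 8.40 and 8.51. In control cells Fgf5 rose by 2.79, Otx2 by 1.07 and Eomes by 0.26. With silencing at 96 h Fgf5 fell by 0.69 (limma adjusted p = 1.59e-09), the 1 of the 4 called. The mean of 5 endoderm markers lay between 6.38 and 6.52 on all 8 channels, with Afp rising by 0.35 in control and 0.50 in silenced cells (limma adjusted p = 0.0158 and 0.00328). In such bulk RNA fewer cells of a type and less RNA per cell cannot be told apart, and the part of these cell types in the members' values was not tested.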

How the data were processed

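RNA of silenced and control cells was measured on 4 two-colour arrays from 200 ng of total RNA per the labels. The authors scanned the arrays and ran Feature Extraction 10.7 per the submitters' processing notes, which also name limma. The deposited scanner files hold spot, local background and processed signals as intensity and the authors' log10 ratios of the Cy5 to the Cy3 signal. The deposited series table, also log10, equalled them within 4.97e-06 once turned to silenced over control. The deposited per-spot p-value was not used.

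With R 4.3.3 and limma 3.58.1, median spot and background signals were corrected by normexp (offset 50) and normalized by loess within arrays, and all values are log2. Of 41174 probes 28082 passed the filter (well above background on both arrays of at least 1 RNA group), giving 21754 genes, each by its brightest probe, of which 13135 had a symbol. Accessions were matched to RefSeq symbols for 24375 probes. Between 62.5% and 68.7% of spots were well above background per channel; the number of arrays limits the precision. Silencing effects were fitted over all 4 arrays with a term for dye, which is also the replicate block (residual df 1, prior df 33.2). Changes with time were fitted on single channels after Aquantile normalization between arrays. That fit also held the dye, and the intraspot correlation was 0.896, a value kept where an array was left out. P-values were two-sided and Benjamini-Hochberg adjusted over all genes, and the methods were tested on simulated data.

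The members and lists were chosen with earlier results of these data known. Named were up to 6 rises and 6 falls per comparison (for silencing with the same sign on both arrays), or the 2 smallest p where none passed, the stalk genes, Rpsa, the paralogs with their parents, members whose probes differed by over 0.5, and up to 3 genes each way from other lists.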

Additional observations from a re-analysis of the deposited data

Results flagged for a closer look

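The silencing effect of Rpl39l differed between the times by the test of the difference itself: it was larger at 96 h than at 24 h by 0.366 on the log2 scale. The ratio was positive on both 96 h arrays and had opposite signs on the 24 h arrays.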

How the results depend on the processing

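With a residual df of 1, the silencing calls depend on the dye term, which is the replicate block. Without that block 0 members were called at 96 h in place of 3, and 0 in place of 1 for the difference between times; over all genes 106 were called at 96 h in place of 2918. At an unadjusted limma p under 0.05 there were 2 and 0 members. The authors' log ratios gave 0 and 0 (4 and 3 members at an unadjusted limma p under 0.05; over all genes 0 at 96 h, with 3846 at an unadjusted p under 0.05), and an offset of 16 gave 0 for the difference. Leaving out 1 array, with the dye term then dropped, gave 0 to 0 calls for both and 0 to 0 at 24 h; at 96 h between 2 and 32 members then had an unadjusted limma p under 0.05. The effect of Rps28 at 96 h was reversed to -0.831 without 96 h replicate 2 and was 1.458 without 96 h replicate 1. At 24 h 0 members were called under each alternative, but with an offset of 16, without the block, with the authors' log ratios and with any 1 array left out 0 of all genes were called too, so those say nothing about stability.

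In control cells 17 members changed with time, against 11 with median centring, 11 with an offset of 16, and 26 (20 rises) with the replicate block. In silenced cells 10 changed, against 32 (25 rises) with the replicate block. The replicate numbers are not stated to pair the samples; the difference of replicate 2 from replicate 1 correlated between the times with r = 0.26 over genes in the mean channel level. Leaving out 1 array gave 20 to 40 calls in control and 21 to 35 in silenced cells, and without 96 h replicate 2, which leaves 1 slide, they were 32 and 21. Over all genes 7923 were called in control cells, 7828 with median centring, 7411 with an offset of 16 and 12382 with the block, and in silenced cells 8127 and, with the block, 12566. The calls with the block or with an array left out included all 17 and all 10. The cause of these shifts was not tested. Without normalization between arrays the members' median change was 0.19 in control cells, where the median of all genes was 0.07.

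The members' dye difference was 0.428 with a loess curve fitted without them, 0.981 with median centring and 0.148 in the authors' log ratios, against 0.405.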
